A study of Mus musculus with 24 samples.

Results

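Solute carriers are the largest group of membrane proteins that move small molecules (sugars, amino acids, ions, nucleosides, vitamins) across the plasma membrane and the membranes of organelles. Their genes are numbered by family, so that Slc2 holds glucose carriers, Slc7 amino acid exchangers, Slc16 monocarboxylate carriers and Slc25 the carriers of the inner mitochondrial membrane. Some carriers are exchangers or need a partner protein, others use the sodium or proton gradient, and blood stem cells are known to be mostly quiescent and to rely on glycolysis more than their dividing progeny. The genes described here are the rows of the count table whose symbol has the form Slc, number, a, number, and whose raw CPM (counts scaled to the column total) were at least 10 in at least 4 of the 24 columns. This rule took 172 genes of 344 rows with such a symbol and of 24421 rows in all. The members were chosen by their level, and Slc15a2 and Slc28a2 were singled out because earlier results had shown how they differed between ages, so for these genes the values are a description with no test.

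Bulk RNA-seq measured the transcripts of 3 marrow populations of C57BL/6 males with no named mutation or treatment, 4 mice aged 12 weeks (young) and 4 aged 107 weeks (aged). Marrow was enriched for CD117+ cells, and all populations were Lin-, Sca1+ and Kit+. Long-term hematopoietic stem cells (LT-HSC) were CD150+CD48-, short-term stem cells (ST-HSC) CD150-CD48- and multipotent progenitors (MPP) CD150-CD48+. Each of the 6 groups of age and population had 4 libraries, which are called libraries 1 to 4 here. No label ties a library to a mouse, so that p-values measure the spread between libraries. Libraries of different populations of an age may come from the same mice, and the main fit did not pair them. Libraries held 7307151 to 12946550 counts with a median of 8652940, so that 3 counts, the limit that a count of 0 allows, corresponded to 0.228 to 0.4 CPM for counting error alone. The sort held in the transcripts: the CD150 gene Slamf1 had a level of 26.2 ± 3.85 CPM in young and 72.1 ± 11.7 CPM in aged LT-HSC (mean ± SD, n = 4) and a mean below 1 CPM in the other groups, while Cd48 was highest in MPP. Some libraries carried transcripts of other cell types. Summed granulocyte markers were 0.0989% of young LT-HSC library 1 and at most 0.00444% of the other young LT-HSC libraries. In aged ST-HSC libraries 1 to 4 these markers were 0.32, 0.268, 0.255 and 0.0181%. Results were also computed without library 1 of young LT-HSC plus libraries 2 and 3 of aged ST-HSC, which earlier results had set apart, and these are called the trio here. Leaving out the trio kept only libraries 1 and 4 of aged ST-HSC, and library 1 had the highest granulocyte share of that group. B and plasma cell markers were 0.199 to 0.911% of aged MPP libraries and 0.0146 to 0.0464% of young MPP libraries. Monocyte and macrophage markers averaged 0.0643% in aged and 0.0268% in young ST-HSC, and 0.0674% in aged and 0.0321% in young MPP. T and NK cell markers averaged 0.0105% in aged and 0.00272% in young LT-HSC, with 7 of the 13 markers at 0 in each group, and their part in the LT-HSC results was not tested. In bulk RNA a change in the share of cells that express a carrier cannot be told apart from a change in the amount per cell.

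Levels are CPM scaled with TMM factors, a correction for library composition, and log2 changes are aged minus young or the first-named minus the second-named population, with the standard error (SE) of the edgeR quasi-likelihood fit over all 24 libraries. A gene was called when its Benjamini-Hochberg adjusted p over 14205 tested genes was under 0.05. All 172 members were tested, and they spanned 44 families. Of these, 120 had at least 10 CPM in every library. The members held between 1.07% and 1.11% of counts on average in every group, so the sum of all carriers showed little difference while single carriers did. For each comparison, some members would not have met the level rule without the libraries of any 1 of the compared groups. These were set apart without a test, as were Slc15a2 and Slc28a2.

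At the edge of the rule, Slc4a3, Slc16a3, Slc4a8 and Slc18a1 reached 10 CPM in exactly 4 columns. Their fourth-highest raw values were 10.7, 10.5, 11.5 and 10.6 CPM. Just outside, Slc11a1, Slc26a10 and Slc2a10 reached it in 3 columns, with fourth-highest values of 4.6, 9.44 and 9.93 CPM. In all, 17 rows reached it in 1 to 3 columns and 155 rows in none. The 5 symbols Slc4a1ap, Slc9a3r1, Slc9a3r2, Slc7a6os and Slc2a4rg-ps fit the pattern although they name partners, a neighbour or a regulator of a carrier, and Slc2a4rg-ps is annotated as a pseudogene. Slc3a2, which encodes a partner of amino acid carriers, is kept among the amino acid carriers here. Of the Slc35 family the pattern takes only symbols with the letter a, so that genes named Slc35b to Slc35f are not members.

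Slc15a2 (PEPT2) encodes a proton-coupled carrier of di- and tripeptides. Its gene lies on chromosome 16 from 36750177 to 36784962 on the minus strand of mouse build GRCm38. Levels in young LT-HSC libraries 1 to 4 were 10.9, 4.73, 0.73 and 0.609 CPM, and in aged LT-HSC 202, 161, 20.9 and 47.8 CPM. Young ST-HSC libraries held 4.38, 4.59, 0 and 0 CPM, against 115, 46, 52.7 and 34.6 CPM in aged ST-HSC. In young MPP the values were 4.71, 6.73, 0 and 0.241 CPM, and in aged MPP 82.3, 30.5, 17.1 and 51.2 CPM. Every aged library was thus above every young library of its population, and the fitted log2 differences were 4.75, 4.82 and 3.96 in LT-HSC, ST-HSC and MPP. The SD was larger than the mean in each young group, and in all 3 young populations libraries 1 and 2 were above libraries 3 and 4. In all 3 aged populations library 1 was the highest. Without young LT-HSC library 1, young ST-HSC library 2 or young MPP library 2 the differences were 5.89, 5.52 and 4.73. The related proton-coupled carrier gene Slc15a4, whose product exports histidine and peptides from endolysosomes, moved the other way. It fell by 0.49 (SE 0.13, adjusted p = 0.0069) in LT-HSC, from 47.1 ± 3.59 to 33.6 ± 3.27 CPM, and by 0.57 (adjusted p = 0.0064) in ST-HSC. The ST-HSC call was lost without the trio (adjusted p = 0.071).

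Slc28a2 (CNT2) encodes a sodium-coupled carrier that concentrates purine nucleosides and uridine. It lies on chromosome 2 from 122426477 to 122461137 on the plus strand. Levels in young LT-HSC were 52.5, 43.3, 44.8 and 43.9 CPM, and in aged LT-HSC 11.9, 19, 20.5 and 14.3 CPM. Young ST-HSC libraries were at 66.9, 59.2, 62.6 and 61.6 CPM, and aged ST-HSC at 89, 71, 88.6 and 78.3 CPM. For young MPP the values were 69.4, 67.7, 70.2 and 82 CPM, and for aged MPP 119, 98, 95.5 and 118 CPM. The gene was therefore lower with age in LT-HSC (log2 -1.49) and higher in ST-HSC (0.39) and MPP (0.57), with no overlap of the ages in any population. The groups ran in order from aged LT-HSC through young LT-HSC, young ST-HSC, young MPP and aged ST-HSC to aged MPP, by their means. Of these neighbours only young MPP and aged ST-HSC had overlapping libraries. Of the 50-base stretches of its annotated exons, 35.4% also occur in Gm14085, a neighbouring near-identical gene, so its counts depend on how shared reads were assigned. Gm14085 itself had a mean of 9.43 ± 2.44 CPM in aged MPP and 2.29 ± 2.76 CPM in young MPP, and at most 2.25 CPM in any LT-HSC library.

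**Figure D1:**
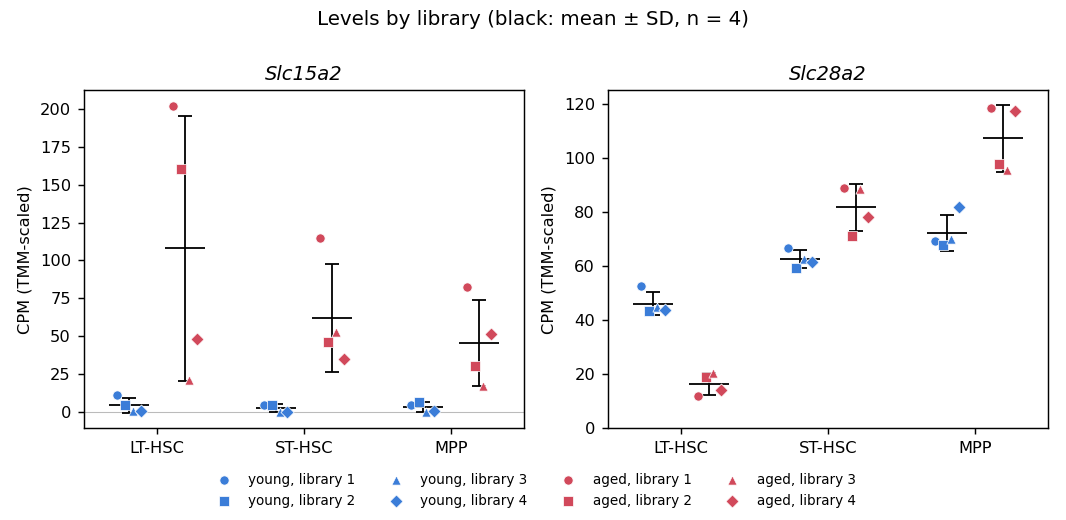
Levels of Slc15a2 (left) and Slc28a2 (right) in CPM on the vertical axis for each library of the 3 populations, young in blue and aged in red, with the mean and SD of 4 libraries in black. Aged libraries of Slc15a2 lie above young ones in each population and spread from 17.1 to 202 CPM, whereas Slc28a2 is lower in aged LT-HSC and higher in aged ST-HSC and MPP.

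The 250 bases before the annotated start were read from RefSeq for these genes and for Slc16a12 and Slc22a3, because Slc15a2 and Slc16a12 were higher and Slc28a2 and Slc22a3 lower in aged than in young LT-HSC, so that both directions are shown. Windows are from build GRCm38.p6, given 5′ to 3′ on the gene's strand, and capitals mark a match to one of 6 motifs searched on both strands. The Slc15a2 window is chr16:36784963-36785212 (minus), that of Slc16a12 chr19:34747329-34747578 (minus), that of Slc28a2 chr2:122426185-122426434 (plus) and that of Slc22a3 chr17:12507705-12507954 (minus).
Slc15a2: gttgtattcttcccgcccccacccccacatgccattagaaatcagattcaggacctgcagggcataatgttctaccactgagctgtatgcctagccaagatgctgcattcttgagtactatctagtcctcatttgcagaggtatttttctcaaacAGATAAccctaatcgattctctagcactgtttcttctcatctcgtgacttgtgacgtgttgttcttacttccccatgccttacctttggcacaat
Slc28a2: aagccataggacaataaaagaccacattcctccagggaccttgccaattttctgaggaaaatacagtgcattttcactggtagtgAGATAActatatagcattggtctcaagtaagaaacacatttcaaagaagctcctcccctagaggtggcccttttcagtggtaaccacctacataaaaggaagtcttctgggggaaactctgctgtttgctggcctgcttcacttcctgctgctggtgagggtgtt
Slc16a12: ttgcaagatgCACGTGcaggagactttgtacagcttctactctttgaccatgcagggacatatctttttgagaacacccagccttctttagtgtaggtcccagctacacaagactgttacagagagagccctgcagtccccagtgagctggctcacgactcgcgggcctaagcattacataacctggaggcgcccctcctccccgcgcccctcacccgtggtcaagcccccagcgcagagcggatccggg
Slc22a3: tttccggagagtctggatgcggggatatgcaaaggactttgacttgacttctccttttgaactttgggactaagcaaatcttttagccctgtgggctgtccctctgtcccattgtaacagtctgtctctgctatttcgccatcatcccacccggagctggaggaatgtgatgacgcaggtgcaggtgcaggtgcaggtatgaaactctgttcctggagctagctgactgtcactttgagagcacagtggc
The Slc15a2 and Slc28a2 windows each hold AGATAA, the letters of a GATA element, at 95 to 90 and 165 to 160 bases before the start, and the Slc16a12 window holds CACGTG, an E-box, at 240 to 235 bases. AGATAA was in 9.99% of all 32851 windows of this length and in 9.47% of the 169 windows of 126 members that matched. CACGTG was in 6.02% of all windows and 13% of member windows, and the Ets element CCGGAAG in 6.91% and 11.2%. Member windows also had more G and C, with a median of 60.8% against 52.4%, and 13 against 6 CpG, so these shares are of windows that differ in base composition. The others searched were TGATGCAA (0.791% of all and 1.18% of member windows), TGAGTCA (4.46% and 3.55%) and TGCACNC (10.4% and 13.6%), none of which is in these 4 windows.

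With age, 38 of the 165 LT-HSC members not set apart were called, 18 higher and 20 lower, beside a background of 9.98% higher and 8.87% lower over all tested genes. That is 23%, where 18.9% of all tested genes and 22.7% of tested genes at the same level rule were called, so the share among carriers was near the background. In ST-HSC 12 of 168 were called, 6 each way, or 7.14% beside a background of 5.79% (3.58% higher and 2.21% lower). In MPP 21 of 167 were called, 15 higher and 6 lower, or 12.6% beside a background of 9.79% (5.53% higher and 4.27% lower). For ST-HSC, MPP and the comparisons below, only the share over all tested genes is given. Members were chosen by level, so a share above it is not read as a result about carriers. The ages did not overlap in 22.1%, 10.9% and 16.5% of all tested genes in LT-HSC, ST-HSC and MPP. The median change of the members was -0.03 in LT-HSC, where that of all tested genes was 0. The calls were spread over the classes. Among LT-HSC members they made up 6 of 26 amino acid carriers, 3 of 9 glucose carriers, 5 of 34 mitochondrial carriers, 5 of 21 metal carriers, 6 of 25 inorganic ion carriers, 3 of 17 monocarboxylate and phosphate carriers, 1 of 3 nucleoside carriers, 1 of 6 nucleotide sugar carriers and 8 of 24 vitamin, lipid and organic ion carriers. Classes follow the family number, so that these counts include Slc2a4rg-ps among glucose carriers and Slc9a3r1 among inorganic ion carriers. Without the symbols that name no carrier, 2 of 8 glucose carriers, 5 of 23 inorganic ion carriers and 36 of 161 members in all were called. The partner gene Slc3a2, which was not called, is still among these 161. Of the 38 LT-HSC calls, 23 were kept under each of 15 alternatives of normalization, test, filter and libraries. The same held for 2 of the 12 ST-HSC calls and 7 of the 21 MPP calls. The setting is given below for only some of the calls that were lost. A call printed without a setting was therefore not necessarily kept.

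**Figure D2:**
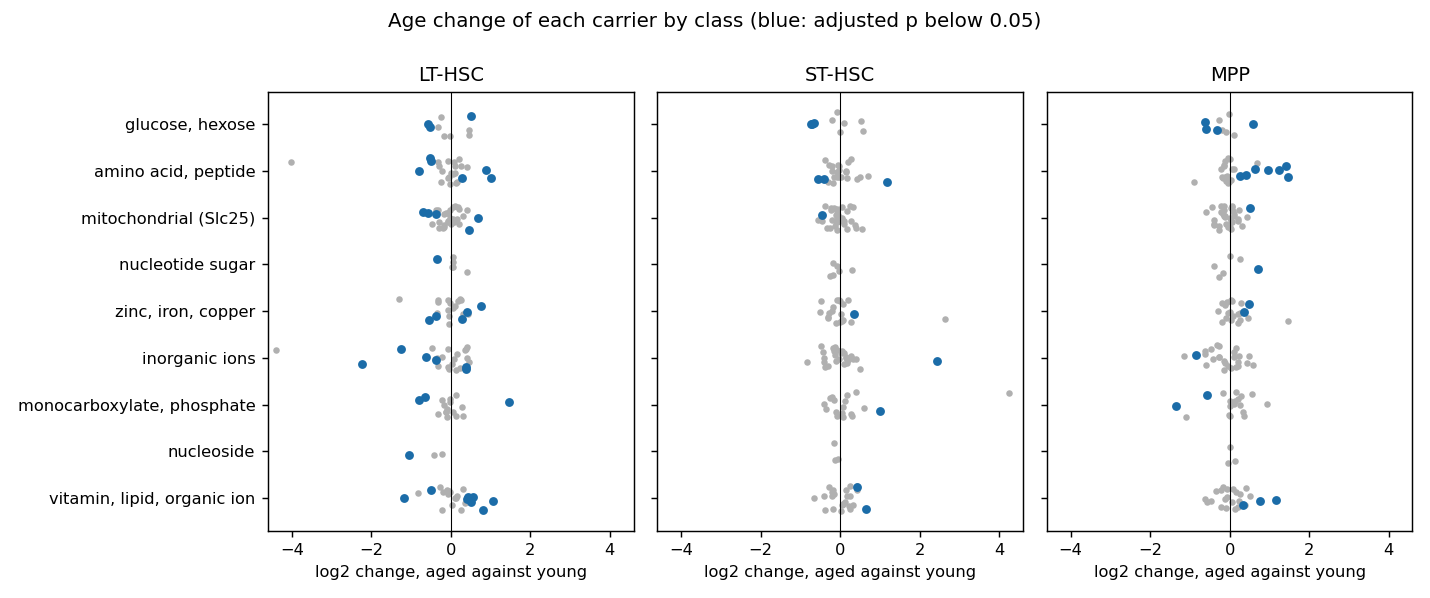
Each point is a member not set apart, at its log2 change of aged against young (horizontal axis) in its carrier class (vertical axis), with one panel for each population and calls (adjusted p under 0.05) in blue. Calls lie on both sides of 0 in most classes in LT-HSC, and the 7 calls among amino acid carriers in MPP all lie to the right. Slc4a1 in LT-HSC is drawn at the edge of the axis, beyond which its value of -6.19 lies.

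Among 26 amino acid carriers 3 were higher and 3 lower with age in LT-HSC, beside 9.98% higher and 8.87% lower of all tested genes. In MPP 7 of 26 were higher and none lower, beside 5.53% higher and 4.27% lower of all tested genes. These 7 include Slc3a2, whose product is a partner of carriers. Slc7a5 (LAT1) exchanges large neutral amino acids such as leucine and forms a dimer with the chaperone encoded by Slc3a2 (CD98). Slc7a5 was at 70.6, 138, 87.7 and 90.2 CPM in young LT-HSC and at 60.6, 49.9, 47.6 and 64.6 CPM in aged LT-HSC, a fall of 0.79 (SE 0.19, adjusted p = 0.0043) with all aged libraries below the young. In MPP it was at 191, 178, 171 and 183 CPM in the young and 244, 323, 283 and 288 CPM in the aged, a rise of 0.65 (SE 0.18, adjusted p = 0.021). The MPP call was lost without aged MPP library 2 or 4 (adjusted p = 0.063 and 0.055) and without young MPP library 2 or 3 (adjusted p = 0.059 and 0.06). The age effects of LT-HSC and MPP differed by -1.45 (adjusted p = 0.00089), and this difference was kept under each of 23 alternatives. It also differed from that in ST-HSC (-0.98, adjusted p = 0.035), a call lost under 12 of 23 alternatives, at adjusted p up to 0.076. Slc7a5 in ST-HSC had no call for age (0.19, adjusted p = 0.62).

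Slc3a2 was at 99.3 to 123 CPM in young MPP and at 180, 306, 179 and 499 CPM in aged MPP, a rise of 1.46 (SE 0.23, adjusted p = 0.00045). Without aged MPP library 4 the rise was 1.07 and still called, and in a fit to only the groups compared the adjusted p was 0.059. In LT-HSC its means were 124 ± 9.89 and 165 ± 15.5 CPM, with no call (0.42, adjusted p = 0.23). The age effects of LT-HSC and MPP differed by -1.04 at an adjusted p of 0.049, which was lost under 18 of 23 alternatives, among them limma-voom (adjusted p = 0.12) and the replicate block (0.07), and was -0.67 without aged MPP library 4 (adjusted p = 0.052). Slc7a8 (LAT2), another partner of CD98, was at 30.6, 24.9, 30.1 and 29.5 CPM in young MPP and 55.8, 56.8, 33.7 and 127 CPM in aged MPP. Its rise of 1.24 (adjusted p = 0.0097) was 0.76 without aged MPP library 4 (adjusted p = 0.035) and was lost in the fit to only the groups compared (adjusted p = 0.098). Library 4 held the highest level of both genes among aged MPP. The B and plasma cell marker share of aged MPP libraries 1 to 4 was 0.247, 0.366, 0.199 and 0.911%, and all 14 of these markers were detected in the group. The monocyte and macrophage marker share of the same libraries was 0.0529, 0.047, 0.0612 and 0.109%, likewise highest in library 4, with none of the 17 markers at 0. The part of either in the rise of Slc3a2 and Slc7a8 was not tested. Slc7a8 also rose in ST-HSC, from 32.3, 37.6, 24.2 and 36 to 64.8, 83.6, 58.2 and 88.2 CPM (1.18, SE 0.3, adjusted p = 0.021). In aged ST-HSC libraries 1 to 4 the monocyte and macrophage share was 0.0357, 0.0841, 0.036 and 0.102%, against 0.0218 to 0.0348% in young ST-HSC, and was highest in libraries 2 and 4, which also held the highest Slc7a8. B and plasma markers averaged 0.0105% in the young and 0.0194% in the aged. The part of these markers in the ST-HSC rise was not tested. That call was lost when aged ST-HSC library 4 (adjusted p = 0.051) or young ST-HSC library 3 (0.071) was left out, and without the trio (0.082).

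Slc7a7 (y+LAT1), a CD98 partner that exports cationic amino acids, rose in LT-HSC by 0.88 (SE 0.2, adjusted p = 0.0028) and in MPP by 0.96 (SE 0.22, adjusted p = 0.0043). Its levels were 22.3, 12.5, 14.1 and 16.3 CPM in young and 28.2, 32.9, 28.4 and 30 CPM in aged LT-HSC. Both calls were kept under all 15 alternatives. Slc1a5 (ASCT2), a sodium-coupled exchanger that takes up glutamine, fell in LT-HSC from 168, 214, 184 and 169 CPM to 138, 125, 124 and 126 CPM. The change was -0.52 (SE 0.09, adjusted p = 0.00024) and was kept under all alternatives, and its age effect differed from that in MPP by -0.59 (adjusted p = 0.0042), where the means were 242 ± 32.4 and 254 ± 10.2 CPM.

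Slc6a15, a sodium-coupled carrier of branched-chain amino acids and proline, had the largest difference of the tested members that were higher in young LT-HSC than in young MPP. Young LT-HSC libraries were at 23.5, 31.4, 24 and 25.4 CPM, young ST-HSC at 6.77 to 9.88 CPM and young MPP at 0.843 to 1.85 CPM. These sets did not overlap, and young LT-HSC exceeded young MPP by 4.2 (adjusted p = 3.9e-12). With age it rose in LT-HSC to 59.2, 48.5, 52.7 and 51.3 CPM (1.02, SE 0.22, adjusted p = 0.0012, kept under all alternatives). In MPP it rose by 1.42 (adjusted p = 0.0023), from 1.41 ± 0.465 to 3.79 ± 1.9 CPM, a call lost with limma-voom (adjusted p = 0.078) and in the fit to only the groups compared (adjusted p = 0.067). In ST-HSC the change was 0.7 with an adjusted p of 0.072. Slc43a2 and Slc43a3, a carrier of large neutral amino acids and a purine base carrier, ran the other way, at -1.48 (adjusted p = 3e-08) and -1.19 (adjusted p = 6.8e-08) in young LT-HSC against young MPP.

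**Figure D3:**
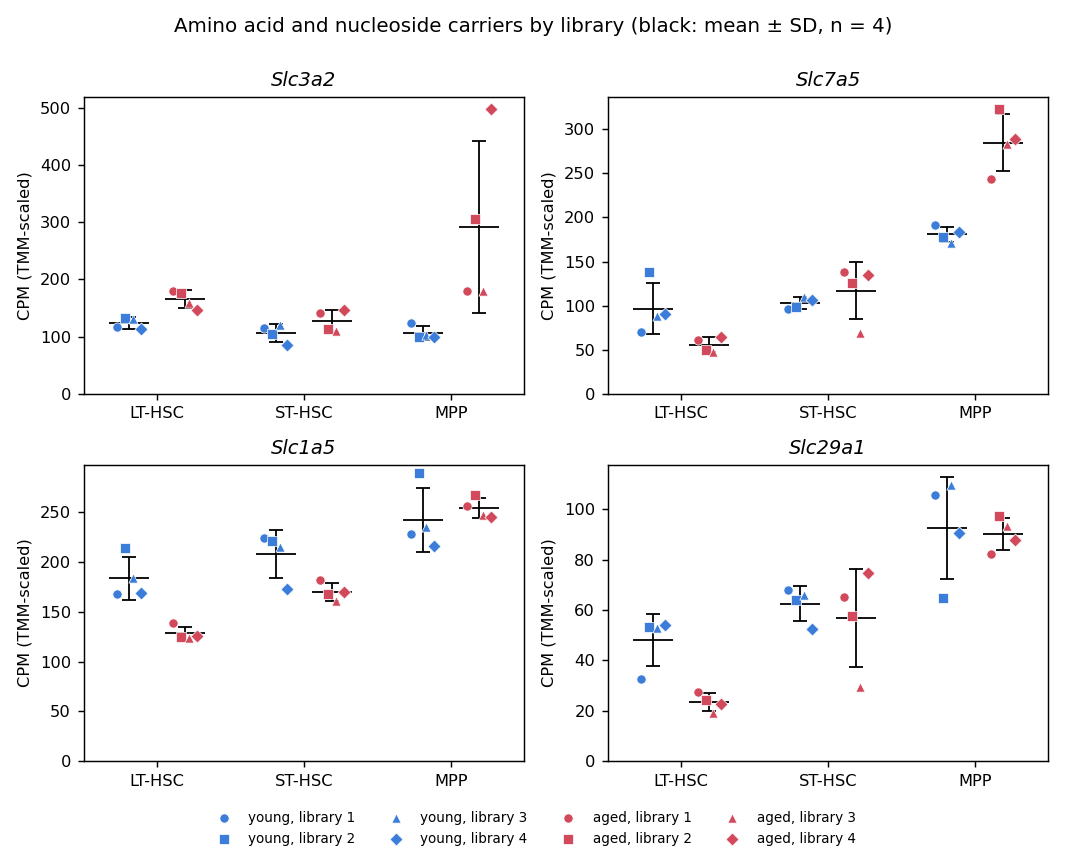
Levels in CPM (vertical axis) in each library, young in blue and aged in red, with mean and SD in black. Shown are Slc3a2, which encodes a carrier partner, the amino acid carrier genes Slc7a5 and Slc1a5 and the nucleoside carrier gene Slc29a1. Slc7a5, Slc1a5 and Slc29a1 are lower in aged than in young LT-HSC, and Slc3a2 reaches 499 CPM in aged MPP library 4.

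A list of 21 genes of the amino acid stress response, which includes targets of the transcription factor ATF4 and the serine synthesis enzymes, was read beside these carriers. In LT-HSC 7 of its 20 tested genes were called, 2 higher and 5 lower, or 35% beside 18.9% of all tested genes, with a median change of 0.05. The lower genes were the serine and one-carbon enzymes Psat1 (-0.65), Phgdh (-0.64), Psph (-0.73), Shmt2 (-0.76) and Mthfd2 (-2.87). Vldlr and Nupr1 were the higher ones, at 2.53 and 1.66. In MPP 2 of 20 were called, or 10% beside 9.79% of all tested genes, both higher, namely Pycr1 (2.07) and Chac1, which had a mean of 0.0602 CPM in young MPP, below the limit of 3 counts, and 7.1 ± 4.67 CPM in aged MPP. Atf4 itself rose in ST-HSC (0.64, adjusted p = 0.042) and changed by 0.45 and 0.49 in LT-HSC and MPP without a call (adjusted p = 0.091 and 0.099). Among 16 tested genes of peptide handling, 4 were called in LT-HSC, or 25% beside 18.9%. Npepps was higher (0.31), and Dpp9 (-0.48), Anpep (-0.92) and Irf5 (-0.99) were lower. In MPP the calls of this list were Cndp2, a dipeptidase (1.15), Anpep (1.73) and Tlr9 (2.2), all higher, beside 9.79% of all tested genes. In ST-HSC they were Cndp2 (0.81) and Tlr9 (2.07), both higher, beside 5.79%. Cndp2 in LT-HSC changed by -0.04 (adjusted p = 0.91). Its level was highest in library 4 of aged MPP (57.3 CPM) and of aged ST-HSC (35.4 CPM). The monocyte and macrophage marker share was also highest in these libraries, and its part was not tested.

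Nucleoside carriers other than Slc28a2 were Slc29a1, Slc29a2 and Slc29a3. Slc29a1 (ENT1) is the main equilibrative carrier of nucleosides at the plasma membrane. It was at 32.5, 53.1, 52.9 and 54 CPM in young LT-HSC and at 27.7, 24.2, 19.3 and 22.7 CPM in aged LT-HSC, a fall of 1.04 (SE 0.22, adjusted p = 0.0015) that was kept under all alternatives. In MPP the means were 92.7 ± 20.2 and 90.1 ± 6.46 CPM, and the age effect in LT-HSC was lower than that in MPP by -1 (adjusted p = 0.034), a call lost under 11 of 23 alternatives, at adjusted p up to 0.074. Young LT-HSC were below young MPP by -0.95 (adjusted p = 0.00095). Slc29a3, which acts in lysosomes and mitochondria, had no age call in LT-HSC (-0.22, adjusted p = 0.16) and was lower in young LT-HSC than in young MPP (-0.8). Slc29a2 had means of 8.58 to 12.1 CPM in the 6 groups. The sum over the 3 Slc29 carriers, without Slc28a2, was 117 ± 15.7 CPM in young LT-HSC and 81.3 ± 6.18 CPM in aged LT-HSC, against 200 ± 22.7 and 199 ± 7 CPM in young and aged MPP. Of 25 tested nucleoside salvage enzymes 4 were called in LT-HSC, 2 higher (Ampd3, 1.31, and Nt5c3, 0.71) and 2 lower (Nt5c3b, -0.55, and Nt5c2, -0.23). This is 16%, below the 18.9% of all tested genes.

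Among glucose and hexose carriers the facilitative carriers Slc2a1 (GLUT1) and Slc2a3 (GLUT3) differed by population. Slc2a3 rose in LT-HSC from 198, 189, 206 and 212 CPM to 272, 285, 307 and 293 CPM, a change of 0.52 (SE 0.1, adjusted p = 0.00037) kept under all alternatives. In MPP it fell by 0.32 (adjusted p = 0.039), from 109 ± 16.5 to 87.4 ± 6.84 CPM, a call lost under 8 of 15 alternatives, at adjusted p up to 0.2 without young MPP library 2. The age effects of LT-HSC and MPP differed by 0.85 (adjusted p = 0.00022). Slc2a1 fell in ST-HSC from 76.4, 82, 91.7 and 80.2 CPM to 45.9, 51, 57.4 and 45.9 CPM (-0.73, SE 0.15, adjusted p = 0.0043, kept under all alternatives). Its changes in LT-HSC and MPP, -0.25 and -0.26, were not called (adjusted p = 0.27 and 0.31). Both genes were higher in young LT-HSC than in young MPP, by 0.83 and 0.88. Slc5a3, the sodium-coupled carrier of the osmolyte myo-inositol, was lower with age in all 3 populations. It fell by 0.65 in ST-HSC (adjusted p = 0.013) and by 0.61 in MPP (adjusted p = 0.012), and by 0.52 in LT-HSC (adjusted p = 0.02). The LT-HSC call was lost without young LT-HSC library 1 (-0.36, adjusted p = 0.1), without aged LT-HSC library 3 (-0.45, adjusted p = 0.066) or 4 (-0.48, adjusted p = 0.05), without the trio (-0.35, adjusted p = 0.11), and in the fit to only the groups compared (adjusted p = 0.055). Of 14 genes of glycolysis entry and lactate metabolism 6 were called in LT-HSC, or 42.9% beside 18.9% of all tested genes. Hk2 (1.1), Hk3 (0.62), Pfkp (0.63), Ldha (0.49) and Txnip (0.63), whose product restrains glucose uptake, were higher, and Pfkl (-0.46) was lower.

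Monocarboxylate carriers of the Slc16 family held the largest rise among the tested LT-HSC members. Slc16a12, which carries creatine and related compounds, was at 13.8, 16.7, 14.7 and 12.9 CPM in young LT-HSC and at 42.7, 35.2, 45 and 38 CPM in aged LT-HSC. The change of 1.47 (SE 0.26, adjusted p = 0.00024) was kept under all alternatives. In ST-HSC it rose from 5.79 ± 0.959 to 11.5 ± 1.86 CPM (0.99, adjusted p = 0.033), a call lost under 6 of 15 alternatives, at adjusted p = 0.054 to 0.094. These were the sets without aged ST-HSC library 1 or 4, without young ST-HSC library 1, 3 or 4, and without the trio. In MPP both means were 2.24 CPM. The levels of the young thus fell in the order LT-HSC, ST-HSC, MPP, by 2.7 from end to end (adjusted p = 7.9e-08), and in the aged by 4.16 (adjusted p = 9.9e-12). The difference of its age effect between LT-HSC and MPP, 1.45 (adjusted p = 0.029), was lost under 9 of 23 alternatives, with an adjusted p of 0.22 in limma-voom.

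Slc16a9, a creatine and carnitine carrier, was at 44.6 to 55.7 CPM in young LT-HSC and 7.47 to 12.1 CPM in young MPP (2.26, adjusted p = 7.8e-09). Models on the other strand overlap 24.2% of its exon bases. Slc16a10 (TAT1), which carries aromatic amino acids, and Slc16a11 were higher in MPP, at -1.43 (adjusted p = 3.4e-07) and -2.05 (adjusted p = 2.2e-06) in young LT-HSC against young MPP. Slc16a11 fell with age in MPP from 15.2, 14.7, 16.3 and 16.9 CPM to 6.62, 8, 2.9 and 7.36 CPM (-1.34, SE 0.28, adjusted p = 0.0022), and its neighbour Slc16a13 fell by 0.58 (adjusted p = 0.0055). Both calls were kept under all alternatives. In LT-HSC Slc16a11 changed by 0.28 (adjusted p = 0.55), and the age effects differed by 1.62 (adjusted p = 0.0098, kept under 23 of 23 alternatives). Slc16a7 (MCT2) fell in LT-HSC by 0.81 (adjusted p = 0.0032), from 12.1 ± 2.22 to 6.91 ± 1.63 CPM. Slc16a10 fell by 0.66 (adjusted p = 0.013), a call lost with limma-voom (adjusted p = 0.078) and without young LT-HSC library 2 (-0.49, adjusted p = 0.071). Its age effect in LT-HSC differed from that in ST-HSC by -0.91 (adjusted p = 0.039), which was lost under 11 of 23 alternatives, among them limma-voom (adjusted p = 0.11) and the replicate block (0.074). Slc17a8 (VGLUT3), a vesicular glutamate carrier, met the level rule only through LT-HSC. It was at 28.7, 17, 10.3 and 5.55 CPM in young LT-HSC and 23.7, 44, 19.4 and 6.58 CPM in aged LT-HSC, and at 1.69 CPM or less in all libraries of the other groups, many of them at 0.

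**Figure D4:**
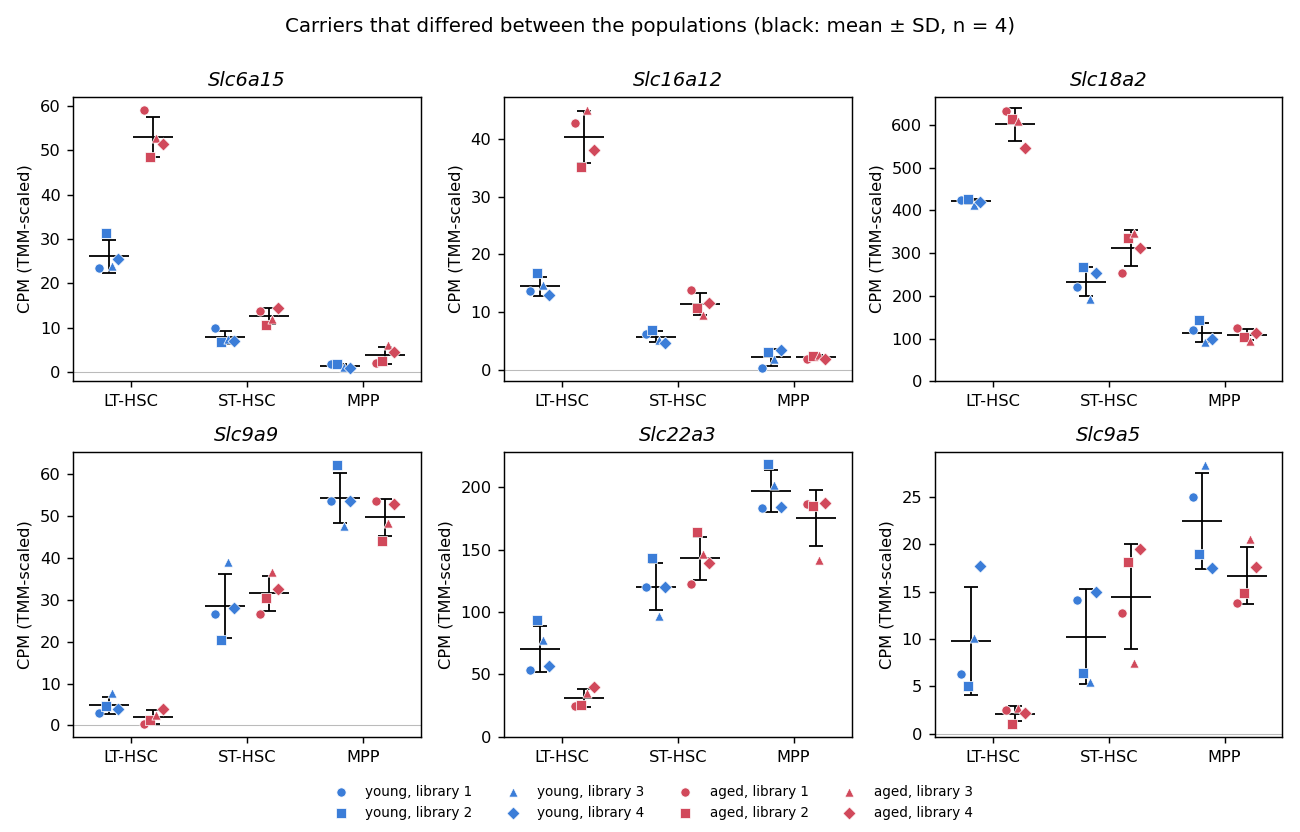
Levels in CPM (vertical axis, one scale per gene) of 6 carriers in each library of LT-HSC, ST-HSC and MPP, young in blue and aged in red, with mean and SD in black. Slc6a15, Slc16a12 and Slc18a2 fall from LT-HSC to MPP and are higher in aged than young LT-HSC, while Slc9a9, Slc22a3 and Slc9a5 are highest in MPP and lower in aged than young LT-HSC on average.

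Mitochondrial carriers (Slc25) are the largest class. Between young LT-HSC and young ST-HSC 1 of 34 was called, or 2.94% where 12.5% of all tested genes were. Slc25a3, the phosphate carrier, had the highest level per kilobase of merged exon of any member in young LT-HSC, at 122 CPM per kb, and Slc25a5 (ANT2), an ADP and ATP exchanger, in young and aged MPP, at 145 and 181 CPM per kb. Slc25a5 was higher in young MPP than in young LT-HSC (-0.76, adjusted p = 3.9e-06), at 170 to 187 against 97 to 115 CPM. With age it fell in LT-HSC by 0.37 (adjusted p = 0.021), a call lost without aged LT-HSC library 2 (adjusted p = 0.051) or young LT-HSC library 2 (adjusted p = 0.053). Of its 50-base stretches 33.8% occur in other annotated genes, among them predicted genes, so its level is uncertain. Slc25a20, which carries acylcarnitines into mitochondria for fatty acid oxidation, rose in LT-HSC from 33.6, 26.9, 30.8 and 31.2 CPM to 46.2, 52.8, 48.9 and 49 CPM (0.68, SE 0.12, adjusted p = 0.00023) and in MPP by 0.51 (adjusted p = 0.0089). Both calls were kept under all alternatives, and in ST-HSC the change was 0.24 (adjusted p = 0.27). Slc25a24, a calcium-regulated carrier of ATP, magnesium and phosphate, differed in its age effect between LT-HSC and MPP by 0.88 (adjusted p = 0.0066), with means of 37.5 and 51.1 CPM in young and aged LT-HSC and 38.4 and 28.4 CPM in young and aged MPP.

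Fatty acid and organic ion carriers had 6 higher and 2 lower calls among 24 members in aged LT-HSC, beside 9.98% higher and 8.87% lower of all tested genes. Slc27a6, a fatty acid transport protein, rose from 38.3, 34.2, 30.2 and 32.9 CPM to 66, 51.2, 55.2 and 64.8 CPM (0.81, SE 0.17, adjusted p = 0.0012), and Slc27a1 rose by 0.41 (adjusted p = 0.0078), whereas Slc27a4 fell by 0.5 (adjusted p = 0.0052). The age effect of Slc27a6 differed from that in MPP by 1.26 (adjusted p = 0.0017, kept under all 23 alternatives). Slc14a1, a urea channel also known as the Kidd blood group protein, rose from 82.1, 55.6, 54.2 and 88 CPM to 153, 160, 167 and 108 CPM in LT-HSC (1.07, SE 0.17, adjusted p = 5.2e-05, kept under all alternatives). In ST-HSC Slc14a1 rose by 0.65 (adjusted p = 0.02), a call lost under 4 of 15 alternatives, at adjusted p = 0.053 to 0.061, namely without aged ST-HSC library 4, without young ST-HSC library 1 or 3, and without the trio. Slc18a2 (VMAT2), which loads monoamines into vesicles and is known from platelet dense granules, was at 425, 428, 414 and 420 CPM in young LT-HSC and 633, 615, 610 and 546 CPM in aged LT-HSC. Its rise of 0.51 (SE 0.12, adjusted p = 0.0027) made it the member of highest level per kilobase in aged LT-HSC, at 159 CPM per kb. It was lower in ST-HSC (233 ± 33.2 CPM) and MPP (114 ± 22.7 CPM) of the young, with 1.89 between young LT-HSC and young MPP (adjusted p = 3.8e-12). The summed share of 12 megakaryocyte and platelet genes was 0.2 ± 0.0329% in young LT-HSC, 0.435 ± 0.0156% in aged LT-HSC and at most 0.0929% in any ST-HSC library, and its part in these values was not tested.

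Slc22a3 (OCT3), a carrier of organic cations, had the opposite pattern. Levels were 53.9, 93.4, 77.2 and 56.8 CPM in young LT-HSC and 24.4, 25.3, 35.1 and 39.8 CPM in aged LT-HSC, a fall of 1.17 (SE 0.17, adjusted p = 3.2e-05). ST-HSC (120 ± 18.7 and 143 ± 17.2 CPM) and MPP (197 ± 16.6 and 175 ± 22.5 CPM) had no call for age, and the age effect in LT-HSC differed from that in ST-HSC by -1.43 (adjusted p = 0.00082) and from that in MPP by -1.01 (adjusted p = 0.0076). These 3 calls were kept under all their alternatives. The ascorbate carrier gene Slc23a2 rose in LT-HSC by 0.43 (adjusted p = 0.00063). In MPP the choline carrier genes Slc44a1 and Slc44a2 rose by 0.77 (adjusted p = 0.0035) and 0.33 (adjusted p = 0.017), the second being lost without aged MPP library 2 (adjusted p = 0.077), young MPP library 2 (0.068) or 3 (0.057), and in the fit to only the groups compared (0.054). Slc46a3, a lysosomal carrier, rose in MPP from 8.73, 8.05, 5.48 and 8.07 CPM to 14.1, 15.2, 17.8 and 20.7 CPM (1.16, SE 0.24, adjusted p = 0.0025, kept under all alternatives).

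Inorganic ion carriers included the largest fall called in LT-HSC. Slc9a5 (NHE5), a sodium-proton exchanger, was at 6.29, 4.98, 10.1 and 17.7 CPM in young LT-HSC and 2.54, 1.02, 2.68 and 2.19 CPM in aged LT-HSC, a fall of 2.24 (SE 0.43, adjusted p = 0.00058) kept under all alternatives. In ST-HSC the means were 10.2 ± 5 and 14.5 ± 5.5 CPM, and the age effects differed by -2.76 (adjusted p = 0.006, kept under 23 of 23). Against MPP the difference was -1.82 (adjusted p = 0.039), which was lost under 11 of 23 alternatives, at adjusted p up to 0.1. Slc9a9 (NHE9), an exchanger of endosomes, was at 2.97 to 7.71 CPM in young LT-HSC, 20.4 to 39 CPM in young ST-HSC and 47.7 to 62.2 CPM in young MPP, without overlap (-3.49 between the ends, adjusted p = 5.8e-09). With age it fell in LT-HSC by 1.26 (adjusted p = 0.021), although young and aged libraries overlapped, and the call was lost in limma-voom (adjusted p = 0.05), in the fit to only the groups compared (0.11) and without aged LT-HSC library 2 (0.071) or young LT-HSC library 3 (0.095). Slc9a7 was likewise higher in young MPP than young LT-HSC (-1.75, adjusted p = 5.5e-06). The bicarbonate carrier gene Slc4a7 rose in LT-HSC by 0.39 (adjusted p = 0.0052). Slc9a3r1, whose product is a scaffold for exchangers and not a carrier, fell by 0.62 (adjusted p = 0.0032). Slc4a8, a sodium-driven chloride and bicarbonate exchanger, met the level rule only through aged MPP, at 19.8, 18.6, 14.4 and 12.3 CPM against 8.04, 1.98, 4.62 and 3.98 CPM in young MPP. In ST-HSC it rose from 0, 0.328, 1.42 and 1.37 CPM to 5.24, 2.2, 3.07 and 6.71 CPM (2.43, adjusted p = 0.014), a call lost in the fit to only the groups compared (adjusted p = 0.059) and without young ST-HSC library 2 (adjusted p = 0.054). Young ST-HSC libraries 1 and 2 were within the limit of 3 counts (0.228 to 0.4 CPM), so the size of this rise is uncertain.

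Metal carriers had 5 calls among 21 in LT-HSC, beside 18.9% of all tested genes. Slc30a4 (ZnT4), which moves zinc into vesicles, rose from 43.2, 35.9, 29 and 28.6 CPM to 50.9, 60.2, 63.9 and 58 CPM (0.77, SE 0.15, adjusted p = 0.00046, kept under all alternatives), and its changes in ST-HSC and MPP were 0.05 and 0.08, without a call. The age effect in LT-HSC differed from these by 0.72 (adjusted p = 0.047) and 0.7 (adjusted p = 0.034), and these calls were lost under 15 and 11 of 23 alternatives. Slc39a11, a zinc importer gene, fell by 0.37 (adjusted p = 0.012, kept under all alternatives). The metallothionein genes Mt1 and Mt2, whose products bind zinc, were called higher in LT-HSC (Mt1 from 3.82 to 105 CPM, log2 4.77, adjusted p = 0.00067). Of 19 tested iron and heme genes 1 was called in LT-HSC (5.26% beside 18.9%), namely Pcbp1 (-0.45). Slc40a1 (ferroportin, the iron exporter), the red cell anion exchanger gene Slc4a1 and the glutamine carrier gene Slc38a5 varied widely between libraries of a group, and the first pair were chosen after their values were seen. Slc4a1 was at 0, 188, 26.6 and 17.4 CPM in young LT-HSC, 0, 0.102, 3.19 and 0 CPM in aged LT-HSC, and 117, 390, 126 and 15.7 CPM in young ST-HSC, and no age effect was called (adjusted p = 0.12 in LT-HSC). Summed erythroblast markers in young LT-HSC libraries 1 to 4 were 0.0818, 0.109, 0.0969 and 0.0901%, with 4 of the 13 markers at 0, and their part in the level of Slc4a1 was not tested. Slc40a1 in aged ST-HSC was at 16.1, 79.9, 15.1 and 83.8 CPM, high in libraries 2 and 4, in which the monocyte and macrophage share (0.0841 and 0.102%) was also above that of libraries 1 and 3 (0.0357 and 0.036%). In aged MPP library 4 Slc40a1 was at 76.5 CPM, where that share, 0.109%, was the highest of the group. The part of these markers in the level of Slc40a1 was not tested. Slc38a5 in young ST-HSC was at 0, 10.8, 3.13 and 10.2 CPM.

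More members differed between LT-HSC and MPP than between the ages of any population. In young LT-HSC against young MPP 74 of 164 members were called, 37 each way, or 45.1% where 37.2% of all tested genes were (18.9% higher and 18.3% lower). Young LT-HSC and young ST-HSC differed in 35 of 164 members (16 higher, 19 lower), or 21.3% beside 12.5% (6.79% higher and 5.74% lower), and young ST-HSC and young MPP in 41 of 168 (24 higher, 17 lower), or 24.4% beside 20.6% (10.5% higher and 10.1% lower). In aged LT-HSC against aged MPP the count was 108 of 164 (52 higher, 56 lower), or 65.9% beside 56.8% (28.3% higher and 28.5% lower). The background here is of all tested genes and not of genes at the level of the members, so the higher shares are not read as a result about carriers. Comparisons of one age share libraries, and so do the age effects with these. The vitamin, lipid and organic ion class leaned to LT-HSC, with 11 of 23 higher and 3 lower in the young. The amino acid class leaned to MPP, with 4 of 26 higher and 10 lower in LT-HSC. The latter include Slc7a6os, which names no carrier, and Slc43a3, a purine base carrier. Classes follow the family number, so the sums given next hold these genes and the partner gene Slc3a2 as well. Summed without Slc15a2, which was chosen for its difference between ages, amino acid carriers were at 2430 ± 145 CPM in young LT-HSC, 2770 ± 104 CPM in young ST-HSC and 3080 ± 48.6 CPM in young MPP, and at 2400 ± 96.5, 2770 ± 98.1 and 3420 ± 170 CPM in the aged. Slc24a5, an exchanger of sodium, calcium and potassium in vesicles, rose in level from MPP to LT-HSC by 1.82, and Slc24a1 by 1.5, and 36.5% of the exon bases of Slc24a5 are overlapped by Myef2 on the other strand. Slc8a1 (NCX1), a sodium-calcium exchanger, was at 143 ± 9.15 CPM in young LT-HSC and 48.5 ± 8.59 CPM in young MPP.

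The age effect in LT-HSC differed from that in MPP for 22 of 163 members (10 higher, 12 lower), or 13.5% beside a background of 9.93% (5.05% higher and 4.89% lower), and from that in ST-HSC for 7 of 164 (2 higher, 5 lower), or 4.27% beside 4.05% (1.65% higher and 2.39% lower). Without young MPP library 2 the first count was 11, and without aged LT-HSC library 2 or aged ST-HSC library 4 the second was 3. Only 3 of the 7 calls of the second comparison, those of Slc22a3, Slc9a5 and Slc25a5, were kept under all 23 alternatives, and 10 of the 22 of the first. Members of the second comparison included Slc22a3, Slc9a5, Slc7a5, Slc16a10 and Slc25a5, which were lower, and Slc30a4, which was higher. Both comparisons share the LT-HSC libraries. Of 30 tested carriers and carrier partners without an Slc symbol, 4 were called in LT-HSC, or 13.3% beside 18.9%. The organic anion carrier genes Slco3a1 (1.16, adjusted p = 8.7e-10) and Slco4a1 (0.95, adjusted p = 0.0015) were higher, and Sfxn2 (-0.81) and Mtch1 (-0.34), which act in mitochondria, were lower. Of the symbols that name no carrier, Slc4a1ap (-0.08, adjusted p = 0.83) and Slc7a6os (0.17, adjusted p = 0.38) had no call in LT-HSC, Slc9a3r2 was set apart, and Slc2a4rg-ps was lower (-0.58, adjusted p = 0.024). Slc2a4rg-ps is also among the calls in ST-HSC (-0.72) and MPP (-0.6). Its LT-HSC call was lost without aged LT-HSC library 2 (adjusted p = 0.085) or 3 (0.066) or young LT-HSC library 3 (0.054).

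Some members share sequence with other genes, and the counting does not separate them with certainty. At least 20% of exon bases of 7 members lie in another annotated gene, and at least 20% of the 50-base stretches of 13 members occur elsewhere. Slc39a7 is overlapped by Gm20427 over 84.5% of its exon bases and Slc22a5 and Slc22a21 share 26.3% and 22% of their stretches, partly with each other. Since the protocol as described does not mark strand, reads from a gene and its antisense partner cannot be told apart.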

How the data were processed

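RNA-seq libraries of LT-HSC, ST-HSC and MPP were made from sorted cells by reverse transcription with selected random primers and Nextera XT, per the labels' protocols. The authors deposited raw counts per gene. Trim Galore, HISAT2, featureCounts and build mm10 are named in the submitters' processing notes, while their versions, the gene annotation used and whether strand was set were not given in the sources used here. Groups of 4 libraries were taken from the labels. Counts were fitted with edgeR 4.0.16 (R 4.3.3) quasi-likelihood models with TMM factors and filterByExpr over all 24 libraries, with 18 residual degrees of freedom, and p-values were Benjamini-Hochberg adjusted over 14205 genes. The fit was tested on simulated data. Alternatives were DESeq2 1.42.0, its size factors, limma-voom (limma 3.58.1), no filter, only the groups compared, a replicate block and libraries left out. Members and lists were chosen with earlier results of these data known. Members named by rule are those of largest change among calls (up to 10 each way in LT-HSC, 6 in ST-HSC and MPP, 8 for young LT-HSC against young MPP, 5 otherwise), the 3 of smallest p per class over the age effects, those at the level threshold and the partner genes. Other members were named beside their class with no rank rule. Most of these were calls for age, between young LT-HSC and young MPP, or in a difference of age effects. Exon lengths and overlaps were from GENCODE on GRCm38, promoter windows from RefSeq on GRCm38.p6. Some members are counted but not reported here by name.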

Additional observations from a re-analysis of the deposited data

Results flagged for a closer look

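For 32 members shown in full, 192 groups of 4 libraries were examined for a highest or lowest library whose gap to the nearest of the others, as a share of the group's range, was above Dixon's 95% critical value, which chance alone passes in about 1 in 20 groups. In 19 groups a library was that far off. In 4 of these, Slc38a5 in aged LT-HSC and Slc17a8 in young ST-HSC, young MPP and aged MPP, 3 libraries were at 0 and the other held at most 3 counts. The distance has no meaning in those 4, which leaves 15. All 19 are listed next, with those 4 included. In LT-HSC these were young library 1 for Slc28a2 (52.55 CPM) and Slc29a1 (32.5 CPM), aged library 1 for Slc1a5 (138.4 CPM), young library 2 (187.6 CPM) and aged library 3 (3.189 CPM) for Slc4a1, and young library 3 (2.294 CPM) and aged library 3 (0.1275 CPM) for Slc38a5. In ST-HSC they were aged library 4 for Slc14a1 (107.4 CPM), young library 4 for Slc2a3 (153.0 CPM), young library 3 for Slc25a20 (27.19 CPM) and young library 2 for Slc17a8 (0.1092 CPM). In MPP they were aged library 3 for Slc22a3 (141.4 CPM), young library 4 for Slc14a1 (64.22 CPM), young library 1 for Slc3a2 (123.4 CPM), aged library 4 for Slc2a3 (97.58 CPM), Slc27a6 (3.825 CPM) and Slc40a1 (76.49 CPM), and young library 3 (0.1217 CPM) and aged library 2 (0.2667 CPM) for Slc17a8.

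Among the 32 members shown in full, the age effect differed between populations in 20 cases by the interaction term of the edgeR fit. Over all members not set apart there were 7 such calls against ST-HSC and 22 against MPP. Of all tested genes 4.05% and 9.93% were called in these comparisons. Against ST-HSC, the log2 effect in LT-HSC was different by -2.76 for Slc9a5, -1.43 for Slc22a3, -0.91 for Slc16a10, -0.98 for Slc7a5, 0.72 for Slc30a4 and -0.63 for Slc25a5. Against MPP the differences were -1.0 for Slc29a1, -1.82 for Slc9a5, -1.01 for Slc22a3, 1.45 for Slc16a12, 1.62 for Slc16a11, -0.87 for Slc16a10, -1.04 for Slc3a2, -1.45 for Slc7a5, -0.59 for Slc1a5, 0.85 for Slc2a3, 0.7 for Slc30a4, 0.58 for Slc18a2, 1.26 for Slc27a6 and -0.69 for Slc25a5. Of these 20 differences, 10 were kept under each of 23 alternatives. The others were lost under 11 (Slc16a10), 12 (Slc7a5) and 15 (Slc30a4) of them against ST-HSC, and against MPP under 18 (Slc3a2), 11 (Slc29a1, Slc9a5 and Slc30a4 each), 10 (Slc18a2), 9 (Slc16a12) and 4 (Slc16a10).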

How the results depend on the processing

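The 7 members whose age effect differed between LT-HSC and ST-HSC became 13 with DESeq2 and 4 without a filter on low counts, and 3 to 8 when a library was left out, with 3 without aged LT-HSC library 2 or aged ST-HSC library 4. The 22 members that differed between LT-HSC and MPP became 11 to 24 when a library was left out, lowest without young MPP library 2. The 21 MPP calls for age were 13 in a fit to only the groups compared and 14 to 20 with a library left out. The 12 ST-HSC calls were 5 without young LT-HSC 1 with aged ST-HSC 2 and 3, and 6 to 14 with a library left out, lowest without young ST-HSC library 3. The 38 LT-HSC calls were 30 to 36 with a library left out. The cause of these shifts was not tested. Slc4a1ap in LT-HSC (-0.08) ranged from -0.18 to 0.04 with a library left out, and was above 0 without young LT-HSC library 1 and without those 3 (0.04 each). Slc15a2 in ST-HSC was 6.96 with limma-voom. Deviations of same-numbered libraries of one age correlated at -0.0414 to 0.13 over 24 pairs, with a median of 0.0362. For libraries of one age with different numbers the range was -0.21 to 0.161 over 72 pairs, with a median of -0.0122. Such correlations over all tested genes cannot settle whether libraries of one number came from one mouse. With the replicate block the calls were 38, 14 and 21 for age in LT-HSC, ST-HSC and MPP, 37, 42, 69 and 106 between populations, and 5 and 22 for the differences of age effects. Depth limits values under 0.228 to 0.4 CPM.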
